A study of Homo sapiens with 12 samples.

Results

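Interleukin-21 receptor (IL21R), proline rich 15 (PRR15), sterile alpha motif domain containing 11 (SAMD11), zinc finger matrin-type 1 (ZMAT1) and cell cycle exit and neuronal differentiation 1 (CEND1) were described as 5 of the 58735 genes counted in endometrial cells cultured with AG-205, a small molecule in use as an inhibitor of PGRMC1. They were chosen by their measured values, for a larger effect of AG-205 in HEC-1A than in T-HESC, with no stated threshold, so that their responses are given below as a description without a test. HEC-1A is an epithelial line from an endometrial cancer, and T-HESC is an endometrial stromal line immortalized with telomerase. Each line received AG-205 at 15 µM or the vehicle DMSO over 32 h, without added progesterone, in medium with fetal serum, and 3 libraries of each of the 4 groups were sequenced. The RNA came from 3 independent culture experiments, and the pairing of treated with control libraries is not given in the sources used here. Each line is 1 established cell line, so the spread between libraries is that between cultures of it.

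A level is a CPM value, a gene's count per 1e6 counts of its library after TMM normalization, and between genes an RPKM value, which divides CPM further by the exon length in kilobases. Total counts per library ran from 7168542 (HEC-1A with AG-205, replicate 3) to 15178276. The summed level of 8 epithelial markers lay between 1410 and 2150 CPM in HEC-1A and between 221 and 387 CPM in T-HESC. Not every epithelial marker was higher in HEC-1A: KRT19 was at 100 CPM in untreated HEC-1A and 106 CPM in untreated T-HESC. The summed level of 8 stromal markers lay between 11.9 and 17.3 CPM in HEC-1A and was at least 13700 CPM in T-HESC. AG-205 replicate 1 of T-HESC stood apart from its group, with a chi-square per degree of freedom over genes of 160 and 207 against the other replicates, which differed by 64.5 from each other. The biological coefficient of variation was wider in T-HESC (33.6%) than in HEC-1A (10.1%).

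IL21R is a cytokine receptor of lymphocytes, which pairs with the common gamma chain IL2RG and signals through the kinases JAK1 and JAK3 to STAT3. SAMD11 carries a sterile alpha motif, a protein interaction domain also found in Polycomb proteins, and is known from photoreceptors, while CEND1 is a neuronal membrane protein linked to the exit of precursor cells from the cell cycle. PRR15 is a small proline-rich protein and ZMAT1 a protein with matrin-type zinc fingers, and neither is tied to a settled pathway in the endometrium.

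The promoters of these genes are shown because their levels moved in the same direction within each cell line, and because 2 of them have a non-coding gene nearby that is described further on. The sequences are RefSeq's for GRCh38.p14, the 250 bases before an annotated start, 5′ to 3′ on the strand of the gene, with capitals for motif matches. For IL21R the window lies at chr16:27427021-27427270 (+), inside the annotated gene at chr16:27402174-27452042, so it belongs to an internal start. For PRR15 it lies at chr7:29563585-29563834 (+), directly before the gene at chr7:29563835-29567293. For SAMD11 it lies at chr1:925481-925730 (+), inside the annotated gene at chr1:923923-944575. For ZMAT1 it lies at chrX:101932028-101932277 (-) and for CEND1 at chr11:790091-790340 (-), at the starts of genes annotated at chrX:101882288-101932031 and chr11:787115-790113.
IL21R: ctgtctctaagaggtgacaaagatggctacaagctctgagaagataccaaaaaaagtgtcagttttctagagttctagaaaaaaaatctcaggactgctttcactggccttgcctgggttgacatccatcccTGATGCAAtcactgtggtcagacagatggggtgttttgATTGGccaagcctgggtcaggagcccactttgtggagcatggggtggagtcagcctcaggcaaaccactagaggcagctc
PRR15: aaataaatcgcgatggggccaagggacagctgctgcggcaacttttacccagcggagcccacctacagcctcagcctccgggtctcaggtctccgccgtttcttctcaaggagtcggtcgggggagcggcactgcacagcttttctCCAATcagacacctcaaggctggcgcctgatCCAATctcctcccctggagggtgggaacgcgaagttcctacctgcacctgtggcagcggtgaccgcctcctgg
SAMD11: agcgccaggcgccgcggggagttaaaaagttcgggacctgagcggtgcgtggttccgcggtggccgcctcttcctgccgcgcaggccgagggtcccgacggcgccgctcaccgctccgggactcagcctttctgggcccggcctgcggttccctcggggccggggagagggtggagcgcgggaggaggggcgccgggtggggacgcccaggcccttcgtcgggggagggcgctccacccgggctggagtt
ZMAT1: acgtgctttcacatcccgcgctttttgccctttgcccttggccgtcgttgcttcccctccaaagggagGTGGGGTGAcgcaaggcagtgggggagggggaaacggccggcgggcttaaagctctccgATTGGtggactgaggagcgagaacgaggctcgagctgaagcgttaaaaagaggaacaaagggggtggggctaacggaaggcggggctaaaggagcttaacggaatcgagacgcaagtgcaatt
CEND1: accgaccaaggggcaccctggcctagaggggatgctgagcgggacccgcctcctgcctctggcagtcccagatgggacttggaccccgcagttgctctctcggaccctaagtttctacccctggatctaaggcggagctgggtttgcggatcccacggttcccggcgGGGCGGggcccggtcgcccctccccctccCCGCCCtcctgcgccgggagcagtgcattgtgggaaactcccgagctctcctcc

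A search on both strands for 9 motifs over the bases from 250 before to 50 after the start found no motif in all of the promoters. The motifs were SRE1 of SREBP (TCACNCCAC), the NRF2 element (TGACNNNGC), the ATF4 element (TTGCATCA), AP-1 (TGANTCA), the TFEB E-box (TCACGTGA), the STAT element (TTCNNNGAA), the GC box (GGGCGG), the CCAAT box (CCAAT) and the TATA box (TATAAA). An AP-1 match that is also part of an NRF2 element is counted under each. The IL21R window held an ATF4 element at -118, which 0.866% of all 35116 promoter windows hold, and a CCAAT box at -80. The ZMAT1 window held an SRE1 match at -182, held by 1.13% of windows, with a CCAAT box at -123 and an NRF2 element after the start, held by 13.3%. PRR15 had CCAAT boxes at -104 and -73, and 34.6% of windows have one. CEND1 had GC boxes at -83 and -54, a motif of 45.0% of windows, whereas SAMD11 had none of the 9. A second RefSeq window of PRR15, at chr7:29565283-29565532, held a STAT element at -28 (7.66% of windows) and a CCAAT box at -97. AP-1, the TFEB E-box and the TATA box, held by 7.71%, 0.98% and 11.5% of windows, were in none of these windows. A match describes letters in a window and says nothing on binding. The promoters shown above also differed in base composition, counted from 250 before to 50 after the start, thus with bases that are not printed. They ran from 51.0% GC and 2 CpG in IL21R to 75.0% GC and 38 CpG in SAMD11, where the median window has 58.7% GC and 14 CpG. The second PRR15 window had 41.3% GC and 7 CpG over the same span.

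IL21R was near the limit of detection in untreated HEC-1A and reached the level of untreated T-HESC upon AG-205 addition. In HEC-1A with DMSO the 3 libraries held 1, 2 and 2 counts, that is 0.0822, 0.159 and 0.18 CPM. With AG-205 they held 64, 72 and 33 counts, or 4.37, 5.32 and 3.95 CPM. All 3 treated libraries were above all 3 controls, and each treated library held more IL21R counts than the controls together. T-HESC held 4.89, 4.06 and 4.09 CPM with DMSO and 1.19, 3.99 and 1.95 CPM with AG-205. Here the treated libraries were below the controls, replicate 2 by the smallest margin (3.99 against 4.06 CPM). The ratio of AG-205 to DMSO was 33.2 (95% interval 13.9 to 103) in HEC-1A, whereas T-HESC gave 0.564 (0.429 to 0.736). These intervals and those given for the other genes are exact conditional binomial intervals on summed counts and cover counting error only. HEC-1A with AG-205 against T-HESC with DMSO gave a ratio of 1.06 (0.844 to 1.32), and the libraries of these groups overlapped. In bulk libraries, a higher level per cell and a larger share of cells expressing a gene cannot be told apart. The intergroup order was HEC-1A with AG-205 (4.55 ± 0.701 CPM, SD, n = 3), T-HESC with DMSO (4.35 ± 0.472), T-HESC with AG-205 (2.38 ± 1.45) and HEC-1A with DMSO (0.14 ± 0.0514).

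PRR15 was higher in the epithelial line than in the stromal line before treatment. Its level in HEC-1A was 9.95, 8.53 and 8.44 CPM with DMSO and 22.7, 26.4 and 25.9 CPM with AG-205. In T-HESC it was 3.84, 2.57 and 3.1 CPM with DMSO and 1.19, 1.66 and 1.1 CPM with AG-205. No 2 groups overlapped: the treated HEC-1A libraries were the highest, the treated T-HESC libraries the lowest, and AG-205 moved the lines further apart. The ratio of AG-205 to DMSO was 2.76 (2.43 to 3.14) in HEC-1A, whereas T-HESC gave 0.417 (0.291 to 0.59), so that the difference between the lines went from 2.81-fold in DMSO to 18.6-fold in AG-205.

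SAMD11 was mainly a transcript of T-HESC, despite its response in HEC-1A. HEC-1A held 0.822, 1.28 and 0.359 CPM with DMSO and 7.92, 6.21 and 7.55 CPM with AG-205. T-HESC held 129, 108 and 95.5 CPM with DMSO and 30.5, 70.7 and 80.4 CPM with AG-205. The 4 groups did not overlap, and the spread was widest in treated T-HESC, where replicate 1 was far below the other libraries. The ratio of AG-205 to DMSO was 8.6 (5.88 to 13.0) in HEC-1A, while T-HESC gave 0.549 (0.521 to 0.578). Untreated T-HESC exceeded untreated HEC-1A 134-fold (93.9 to 199), and treated HEC-1A still had 0.0641 of the untreated T-HESC level (0.0563 to 0.0726).

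ZMAT1 had only a small response in HEC-1A, and its difference between the lines came with low counts in T-HESC. In HEC-1A its level was 13.6, 15.0 and 14.2 CPM with DMSO and 17.5, 18.0 and 20.8 CPM with AG-205. The groups were apart, but the ratio was 1.29 (1.15 to 1.45). In T-HESC the libraries held 9, 8 and 9 counts with DMSO and 1, 2 and 2 counts with AG-205, and the gene was removed there by the filter on low counts. The ratio in T-HESC was 0.189, with a wide counting interval of 0.0566 to 0.5. HEC-1A exceeded T-HESC 19.4-fold in DMSO.

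CEND1 was low in all groups. HEC-1A held 2, 4 and 2 counts with DMSO (0.164, 0.319 and 0.18 CPM) and 18, 21 and 8 counts with AG-205 (1.23, 1.55 and 0.958 CPM). T-HESC held 52, 30 and 29 counts with DMSO (3.92, 2.49 and 2.9 CPM) and 3, 12 and 13 with AG-205 (0.274, 0.903 and 1.1 CPM). Each line's treated libraries were apart from its controls, upward in HEC-1A and downward in T-HESC, where replicate 1 was again the lowest. The ratio of AG-205 to DMSO was 5.76 (2.7 to 14.1) in HEC-1A, against 0.248 (0.157 to 0.378) in T-HESC. Treated HEC-1A and treated T-HESC overlapped, as did treated T-HESC and untreated HEC-1A, so that with AG-205 the order of the lines at this gene was not resolved, while in DMSO T-HESC was 14.1-fold above HEC-1A (6.9 to 33.4).

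**Figure D1:**
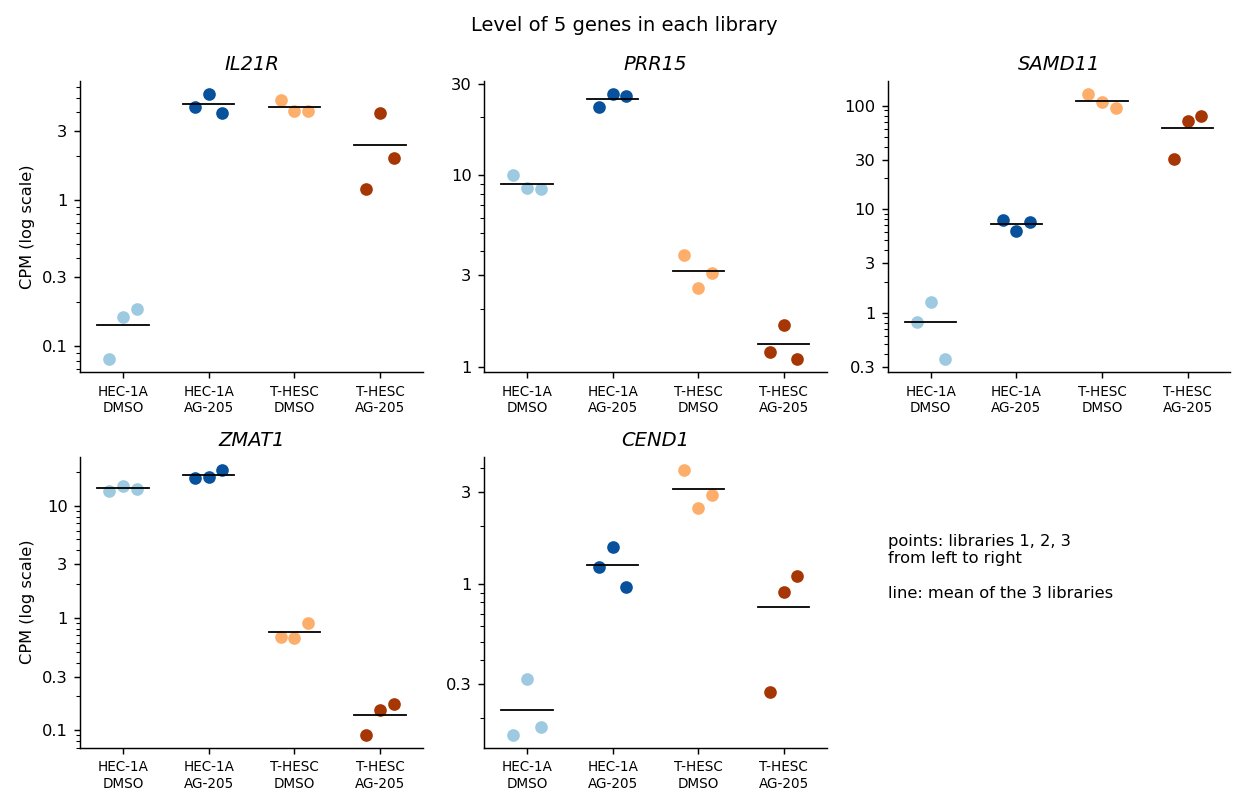
CPM on a log axis of IL21R, PRR15, SAMD11, ZMAT1 and CEND1 in the 3 libraries (points) of each group, with the mean as a line. In HEC-1A the AG-205 libraries lie above the DMSO libraries in every panel, and in T-HESC they lie below, while the untreated lines start far apart, T-HESC being higher for IL21R, SAMD11 and CEND1 and HEC-1A for PRR15 and ZMAT1.

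Per length, SAMD11 in untreated T-HESC had the highest level of the 5 genes in any group, 26.6 RPKM, followed by SAMD11 in treated T-HESC (14.5) and PRR15 in treated HEC-1A (12.8). In untreated HEC-1A the order was PRR15 (4.59 RPKM), ZMAT1 (1.9), SAMD11 (0.196), CEND1 (0.136) and IL21R (0.0257). In treated HEC-1A it was PRR15, ZMAT1 (2.5), SAMD11 (1.73), IL21R (0.833) and CEND1 (0.765). The strand setting of the counting is not given in the sources used here, so counts can hold reads of genes on the opposite strand: IL21R-AS1 covers 1273 exon bases of IL21R (23.3%) and NOC2L covers 373 of SAMD11 (8.94%). IL21R-AS1 had at most 4 counts in any library, against 64, 72 and 33 for IL21R in treated HEC-1A. NOC2L went from 225 ± 1.4 to 166 ± 15.0 CPM in HEC-1A (SD, n = 3), opposite in direction to SAMD11. Whether the counts hold reads of the opposite strand was not tested.

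In the fits of AG-205 against DMSO across all genes, made with edgeR's quasi-likelihood test, the log2 fold change in HEC-1A was 4.94 (SE 0.367) for IL21R, 3.10 (0.295) for SAMD11, 2.46 (0.439) for CEND1, 1.47 (0.128) for PRR15 and 0.39 (0.122) for ZMAT1. Of the 5 genes, 4 lay on the higher side of both thresholds of the study (0.05 for the adjusted p and 1 for the log2 fold change), and ZMAT1 did not. Among all 14122 genes tested in HEC-1A, 2.58% lay there, and 2.78% in either direction. All 5 had every treated library above every control, as had 16.4% of genes tested. The choice of the genes used this contrast, so nothing is read from these counts. In T-HESC the log2 fold changes of the 4 genes that passed the filter were -0.88 (SE 0.458) for IL21R, -1.27 (0.378) for PRR15, -0.89 (0.353) for SAMD11 and -2.02 (0.519) for CEND1. None of them was called higher or lower. Among 13753 genes, 0.08% were called higher, the same share as in either direction. Without AG-205 replicate 1, the T-HESC values were -0.57 for IL21R, -1.22 for PRR15, -0.58 for SAMD11 and -1.65 for CEND1. In T-HESC the 4 genes that passed the filter had every treated library below every control, as had 4.81% of the genes tested. So had ZMAT1, which was not among the genes tested there. The choice of the genes used the T-HESC values too, so nothing is read from this count either.

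The difference of the log2 fold changes, T-HESC minus HEC-1A, was -5.79 (SE 0.651) for IL21R, -4.45 (0.677) for CEND1, -3.97 (0.546) for SAMD11, -2.73 (0.314) for PRR15 and -2.73 (0.402) for ZMAT1. All 5 lay past the thresholds on the side lower in T-HESC, where 0.13% of 16132 genes did, and 0.174% in either direction. The count of 5 fell to 0 with the replicate number as a block, to 2 at an adjusted p limit of 0.01, and to 2 or 3 in most fits that left out a library. ZMAT1, which did not pass the filter within T-HESC, entered this fit of 12 libraries through its HEC-1A counts, and its difference rests on 26 and 5 summed counts in T-HESC. Ranked from the lowest difference, IL21R was number 2, CEND1 19, SAMD11 26, PRR15 154 and ZMAT1 157. This ordering describes the choice and was not tested. For PRR15 and CEND1 the log2 fold changes in the 2 lines were close in size and opposite in sign, for IL21R and SAMD11 the HEC-1A value was several times larger, and for ZMAT1 the ratio of AG-205 to DMSO was 1.29 in HEC-1A and 0.189, on few counts, in T-HESC.

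**Figure D2:**
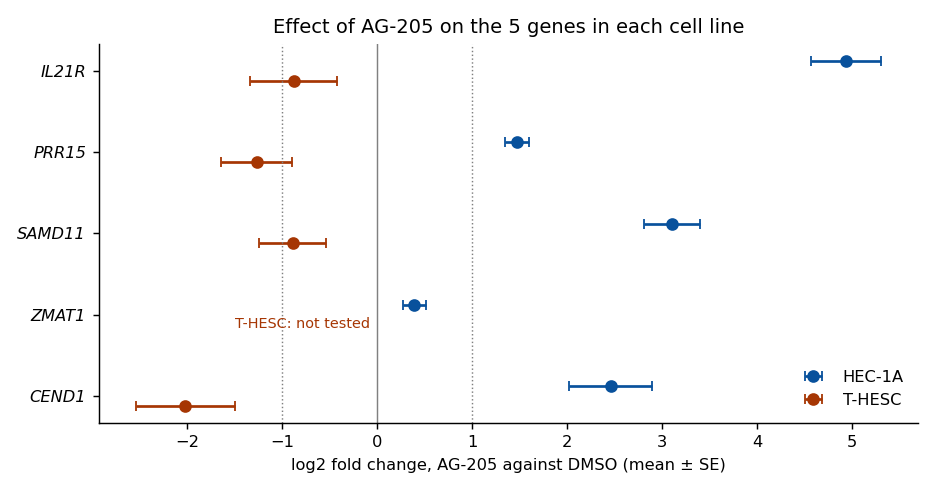
Log2 fold change of AG-205 against DMSO with its SE (bars) in HEC-1A and T-HESC, with dotted lines at -1 and 1. HEC-1A values run from 0.39 (ZMAT1) to 4.94 (IL21R) and T-HESC values from -2.02 (CEND1) to -0.88 (IL21R), and ZMAT1 was not tested in T-HESC.

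Genes beside these on the chromosomes were not used to choose them and were tested. LINC02593, a non-coding gene on the opposite strand whose annotated start is 2907 bases from that of SAMD11, was upregulated by AG-205 in HEC-1A. Its level went from 0.493, 0.239 and 0.18 CPM with DMSO to 2.39, 2.29 and 1.44 CPM with AG-205 (log2 fold change 2.74, SE 0.406, Benjamini-Hochberg adjusted p = 0.000974 by edgeR's quasi-likelihood test). The T-HESC libraries held 48.3, 26.4 and 25.3 CPM with DMSO and 14.2, 23.5 and 25.5 CPM with AG-205, overlapping groups (-0.68, SE 0.342, adjusted p = 0.993 in that edgeR test). The lines differed in the interaction test of edgeR, T-HESC minus HEC-1A being -3.39 (SE 0.589, Benjamini-Hochberg adjusted p = 0.0489). That value is close to the threshold and passed it in 2 of 12 fits that left out a library. Like SAMD11, LINC02593 was far higher in T-HESC than in HEC-1A before treatment.

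PRR15-DT, a divergent transcript on the opposite strand whose annotated start is 114 bases from that of PRR15, was also upregulated in HEC-1A. Its level went from 0.493, 0.956 and 0.359 CPM to 2.46, 2.36 and 2.4 CPM (log2 fold change 1.96, SE 0.335, Benjamini-Hochberg adjusted p = 0.0027 by edgeR's quasi-likelihood test). With all 12 libraries in the fit, its adjusted p in edgeR's test was 0.185. In T-HESC it held at most 4 counts in a library and was not tested. Whether PRR15-DT and LINC02593 share counted reads with PRR15 and SAMD11 was not tested.

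The other neighbours did not pass both thresholds in either line. GATD1-DT, 1884 bases from CEND1, had a log2 fold change of 0.93 in HEC-1A (adjusted p = 0.00608), under the fold limit, and passed it without DMSO replicate 1 (1.17, adjusted p = 0.00353, all by edgeR's quasi-likelihood test). SLC25A22 on the other side of CEND1 had -0.37, IL4R and GTF3C1 beside IL21R 0.06 and -0.23, KLHL17 and NOC2L beside and over SAMD11 0.34 and -0.44, and DPY19L2P3 beyond PRR15 -0.39. BEX5, the nearest tested gene on the right of ZMAT1, had 0.85, and ARMCX2 on its left was tested only in T-HESC, at -0.39. NOC2L and SLC25A22 had adjusted p of 0.00944 and 0.0464 in edgeR's test with values under the fold limit.

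**Figure D3:**
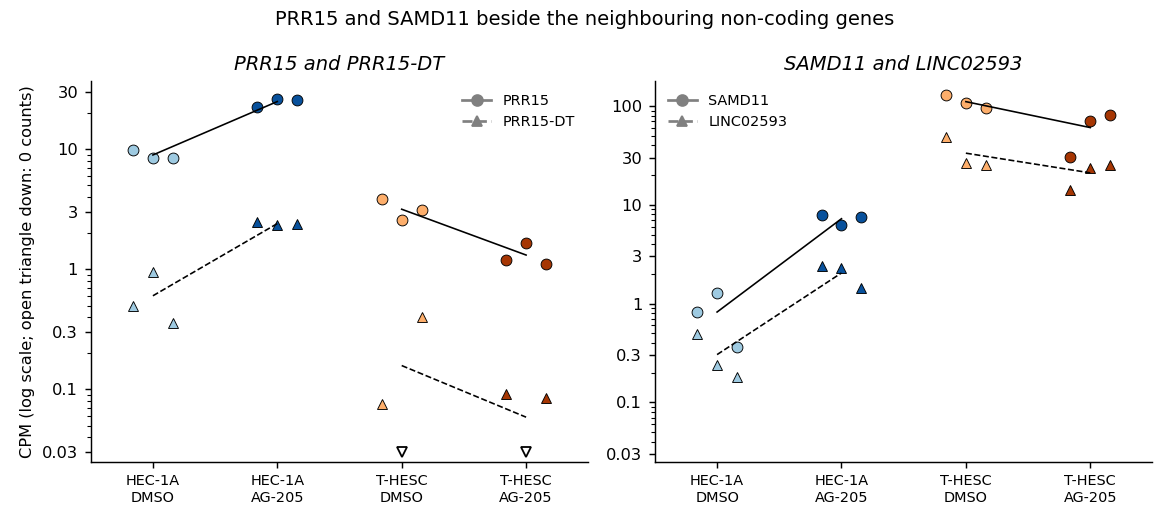
CPM on a log axis of PRR15 and SAMD11 (circles) and of the neighbouring non-coding genes PRR15-DT and LINC02593 (triangles) in each library, with lines joining group means within a cell line. In HEC-1A each pair was higher with AG-205, and in T-HESC the LINC02593 libraries of the groups overlapped while PRR15-DT stayed at 0 to 4 counts.

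The partners through which IL21R is known to signal were followed in a list of 21 gamma-chain receptors, ligands, kinases and regulators. None of the 11 tested in HEC-1A and none of the 13 tested in T-HESC passed, with a median log2 fold change of -0.04 and -0.05, where the medians over all genes tested were 0.01 and 0.02. Of all genes tested, 2.78% passed in either direction in HEC-1A and 0.08% in T-HESC. At these shares, a count of 0 in this or the later lists is not read as a result. The ligand gene IL21 had 0 counts in all 12 libraries, and IL2RG, the receptor's partner chain, had 1 count in 1 untreated T-HESC library and 0 elsewhere. JAK1 was at 6.19 and 6.88 CPM in untreated and treated HEC-1A (log2 fold change 0.15) and at 198 and 193 CPM in T-HESC (-0.05), while JAK3 was at 1.18 and 1.24 CPM in HEC-1A (-0.06) and at most 3 counts in T-HESC. STAT3 had 0.22 and 0.03, and the cytokine IL15 had 0.55 in HEC-1A. Lymphocyte markers were near 0: of 8, CD3E, CD2 and MS4A1 had no count in any library, and the summed level of all 8 was 0.478 to 0.658 CPM in untreated and 0.479 to 0.813 CPM in treated HEC-1A. In T-HESC their sum was 1.57 to 1.96 CPM with DMSO and 0.15 to 0.732 with AG-205, with most of the DMSO counts from PTPRC. PTPRC had 18, 17 and 15 counts with DMSO and 7, 1 and 5 with AG-205, and its part in the IL21R level there was not tested.

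SAMD11 was set beside 26 genes of sterile alpha motif proteins and of Polycomb repressive complex 1. None of the 24 tested in HEC-1A or the 23 tested in T-HESC passed both thresholds, and the medians were -0.06 and -0.05. SCML1 and L3MBTL1, members of the Polycomb-related SAM family, had log2 fold changes of 0.66 and 0.58 in HEC-1A, under the fold limit, with adjusted p of 0.00404 and 0.0461 (Benjamini-Hochberg, edgeR's quasi-likelihood test). PHC1 had -0.17 and the ubiquitin ligase RNF2 0.05, and SAMD7, the photoreceptor paralog, had 1 count in 1 library. Of 8 photoreceptor markers, CRX and RCVRN were at 0 in every library, while the summed level was 1.28 to 2.06 CPM in untreated and 2.87 to 3.59 CPM in treated HEC-1A, mostly from NRL and ABCA4. In T-HESC, where SAMD11 was far higher, the sum was 1.3 to 1.82 CPM with DMSO and 1.13 to 2.29 CPM with AG-205. The part of these genes in the SAMD11 level was not tested.

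For PRR15 the list held its paralog PRR15L, which had 0 to 8 counts in a library and was not tested. For ZMAT1 it held 9 genes of matrin-type zinc finger proteins, of which 7 were tested in each line and none passed, with medians of -0.1 and -0.19. ZMAT3, a target of p53, had -0.01 in HEC-1A and -0.11 in T-HESC. The largest values in HEC-1A were 0.30 for MATR3 and -0.18 for CIZ1.

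CEND1 was set beside 20 genes, its protein partners and genes of cell cycle exit. In HEC-1A 1 of 19 tested passed and in T-HESC 0 of 20, with medians of -0.06 and 0.04. Of all genes tested, 2.78% passed in HEC-1A and 0.08% in T-HESC, so these counts are not read as a result. The gene that passed was CDKN1A, which codes for the cyclin-dependent kinase inhibitor p21. In HEC-1A it rose from 1.48, 1.2 and 0.988 CPM to 15.9, 23.3 and 14.6 CPM (log2 fold change 3.87, SE 0.245, Benjamini-Hochberg adjusted p = 5.83e-07 by edgeR's quasi-likelihood test). T-HESC held 461, 432 and 469 CPM with DMSO and 485, 742 and 883 CPM with AG-205, apart but short of the threshold (0.61, SE 0.27, adjusted p = 0.942 in that edgeR test). Its difference between the lines was -3.23 (SE 0.373, adjusted p = 0.00546 in edgeR's interaction test). This list was chosen with earlier results of these data known, so the CDKN1A p-values are not independent support. CEND1 and CDKN1A thus had the same ordering of untreated lines and the same direction in HEC-1A, and CEND1 was lower in treated T-HESC where CDKN1A was higher. The CEND1 partners RANBP9, DYRK1B and AHI1 had log2 fold changes of -0.06, -0.13 and -0.08 in HEC-1A and of -0.11, -0.11 and 0.75 in T-HESC.

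Neuronal markers were compared with CEND1 in the same way. Of 8, SNAP25 and STMN2 had 0 counts in HEC-1A and at most 2 in T-HESC. The summed level was 2.07 to 2.71 CPM in untreated and 2.4 to 3.55 CPM in treated HEC-1A, and 25.8 to 40.0 and 18.6 to 22.3 CPM in T-HESC, where SYT1 and INA made up most of it. The sum and CEND1 moved in the same direction in T-HESC, and its part in the CEND1 level was not tested. The summed level of 8 epithelial markers went from 1410 to 1560 CPM in untreated HEC-1A to 2090 to 2150 CPM in treated HEC-1A, with KRT19 and CLDN4 past both thresholds there and KRT8, which went from 289 to 402 CPM, under the fold limit. In T-HESC the sum was 238 to 342 CPM with DMSO and 221 to 387 CPM with AG-205. KRT19, CLDN4, KRT8 and KRT18 had log2 fold changes of 1.05, 0.21, -0.33 and -1.47 in T-HESC, and none was called. The KRT19 value in HEC-1A was 1.09. In HEC-1A the 5 genes and the epithelial sum moved in the same direction, and the part of the marker shift in their levels was not tested.

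**Figure D4:**
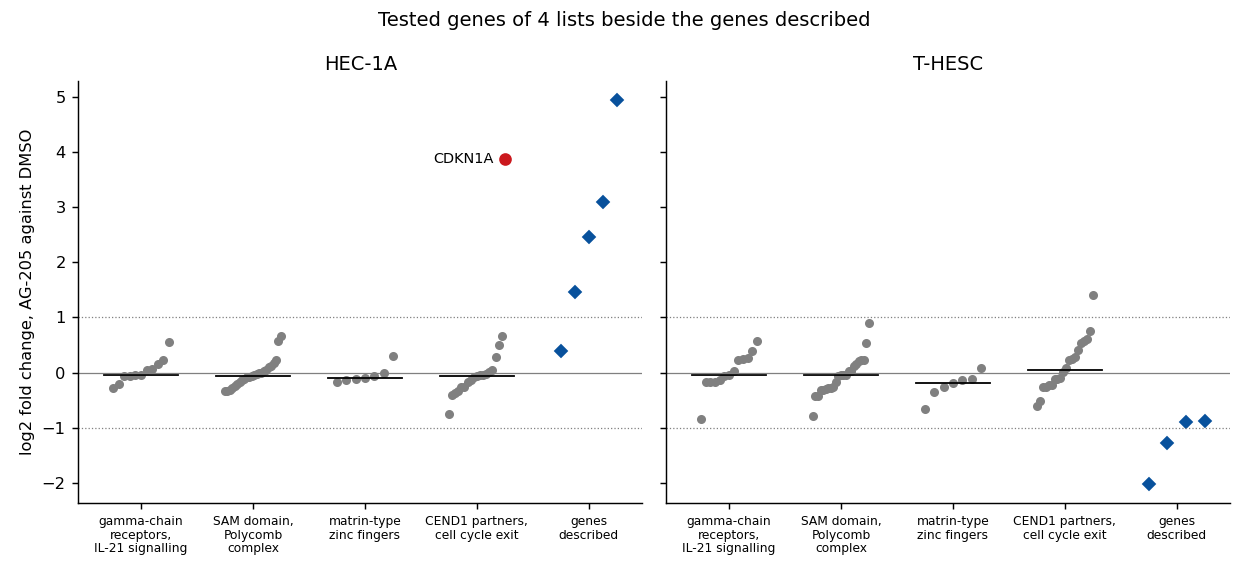
Log2 fold change of AG-205 against DMSO for the tested genes of 4 lists (points, lines at the median) and for the genes described (diamonds), in HEC-1A and in T-HESC, with dotted lines at -1 and 1. CDKN1A, at 3.87 in HEC-1A, is the point past both thresholds, and the list medians lie between -0.19 and 0.04.

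The patterns of the 5 genes over the 12 libraries were compared with those of all 16132 genes kept in the fit, as the root mean square difference of log2 CPM centred per gene, in which a smaller value means more alike. Pairs among the 5 genes differed by 0.87 (IL21R and CEND1) to 5.06 (SAMD11 and ZMAT1). CEND1 was the second gene nearest to IL21R, behind GAS6-AS1 (0.643), a non-coding gene that went from 0.0299 to 3.4 CPM in HEC-1A, and before H4C8 (0.914), a histone gene. The genes nearest to PRR15 were ENSG00000270605 (0.44), C19orf33 (0.448) and LCN12 (0.469). Those nearest to SAMD11 were LINC02593 (0.502), FAM20C (0.661), a secreted-protein kinase, and PLAT (0.672), tissue plasminogen activator. PLAT, like SAMD11, was low in untreated HEC-1A (1.42 CPM), higher with AG-205 (8.71 CPM) and far higher in T-HESC (239 and 216 CPM). Those nearest to ZMAT1 were KRT80 (0.35), an epithelial keratin, FGFR3 (0.394) and EPHA1 (0.411), receptor tyrosine kinases, with log2 fold changes of -0.12, 0.19 and 0.17 in HEC-1A and of -1.50, -1.29 and -1.13 in T-HESC. These genes, like ZMAT1, were higher in HEC-1A than in T-HESC and had negative values in T-HESC. Those nearest to CEND1 were NYNRIN (0.534), NLRC5 (0.589), a regulator of MHC class I genes, and H2BC4 (0.589). Over the 4 group means in place of the 12 libraries, 3 of the 3 nearest genes were shared for SAMD11, 2 for IL21R and ZMAT1, 1 for PRR15 and 0 for CEND1. The measure takes in the difference between the untreated lines as well as the response to AG-205, and IL21R and CEND1 had under 10 counts in all untreated HEC-1A libraries.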

How the data were processed

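PolyA RNA of 12 cultures was sequenced. The authors used Trimmomatic 0.38 for trimming, HISAT2 2.1.0 for alignment to GRCh38 and featureCounts of Subread 2.0.0, and deposited unnormalized counts for 58735 genes. The strand setting is not given in the sources used here. The groups were taken from the sample labels. The tests used edgeR 4.0.16 under R 4.3.3 (TMM, filterByExpr, quasi-likelihood test, Benjamini-Hochberg adjustment over all genes tested), per line, and over all 12 libraries for the difference between the lines. Thresholds were 0.05 for the adjusted p and 1 for the size of the log2 fold change. SEs were derived from the quasi-likelihood F value. A single gene with 3 libraries against 3 cannot reach an exact permutation p under 0.1, so genes were tested in fits across genes only. The 5 genes, lists and motifs were chosen with earlier results of these data known. Named beside the 5 genes were the 3 genes nearest in pattern to each, overlapping genes and the nearest tested neighbours, list genes past the thresholds (otherwise the 2 with the largest values in HEC-1A) and preset partners, and other genes named were chosen after their values were seen. Gene positions came from GENCODE 44, promoters from RefSeq. Alternatives were DESeq2 1.42.0, RLE and upper-quartile scaling, no filter, a filter at a mean of 1 CPM, the replicate number as block, 0.01 as adjusted p, leaving out the fold limit, 1 fit of 12 libraries and leaving out single libraries. The test was checked on simulated data. Plots were drawn with matplotlib 3.10.9. Values of some list genes are not reported here.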

Additional observations from a re-analysis of the deposited data

Results flagged for a closer look

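Among the genes tested beside the 5, CDKN1A and LINC02593 differed between the cell lines in their response to AG-205 by edgeR's interaction test. The log2 fold change in T-HESC minus that in HEC-1A was -3.23 (SE 0.373, adjusted p = 0.00546) for CDKN1A, whose HEC-1A value was 3.87 and T-HESC value 0.61, with 3 of 3 treated libraries above the controls in each line. It was -3.39 (SE 0.589, adjusted p = 0.0489) for LINC02593, whose HEC-1A value was 2.74, with 3 of 3 treated libraries above the controls, and whose T-HESC value was -0.68. With the replicate block the adjusted p of edgeR's test was 0.0947 for CDKN1A and 0.343 for LINC02593. The list that holds CDKN1A was chosen with earlier results of these data known, so its p-values are not independent support.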

How the results depend on the processing

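In HEC-1A, the count of the 5 genes called higher was 4 and was 3 under DESeq2, which gave CEND1 no adjusted p, under the 1-CPM filter, which removed CEND1, and in the fit of all 12 libraries, where CEND1 did not pass, and 0 were called higher in T-HESC under all alternatives run. The log2 fold changes of the 5 genes kept their direction under all alternatives, IL21R from 4.68 to 5.13 and ZMAT1 from 0.31 to 0.44 in HEC-1A, and IL21R from -1.5 to -0.57 in T-HESC, where AG-205 replicate 1 or 2 of T-HESC set the ends. The count of the 5 genes past the thresholds for the difference, 5, was 2 at an adjusted p under 0.01 and 2 to 5 with single libraries left out. It was 5 only without AG-205 replicate 1 or 3 of T-HESC, and the fits without another library gave 2 or 3. Of the list and neighbouring genes, 2 of 75 tested differed between the lines, 1 at an adjusted p under 0.01 and 1 to 2 with single libraries left out. In HEC-1A 3 of 70 tested were called, against 15 with no fold limit. Of all genes tested, 0.174% differed between the lines and 2.78% were called in HEC-1A. In a fit with the replicate number as a block, 0 of the 5 genes and 0 of the list and neighbouring genes passed for the difference. Whether the numbers pair the libraries is not known. The correlations of same-numbered libraries ran from -0.425 to 0.206, and not every library correlated best with its own number. With 3 libraries in a group, such correlations cannot decide whether a number marks a shared culture experiment. The cause of these changes was not tested. Of the list genes 0 were called in T-HESC in edgeR and in DESeq2. Among all 13753 genes tested there, 740 had an unadjusted p under 0.05 in edgeR's test. That is close to the number this limit gives with no effect. Still, 11 of these genes passed both thresholds, all of them higher. With the wide spread between T-HESC libraries, the count does not show that AG-205 had no effect there. Depth limits IL21R and CEND1 in untreated HEC-1A and ZMAT1 in treated T-HESC, at 1 to 4 counts a library.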
